A study of Mus musculus with 12 samples.

Results

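The 10 genes of the photoreceptor injury and Stat3 response were followed in a transcriptome study of mice that lack the tyrosine phosphatase Shp2 in rods. The genes were chosen by name as early degeneration signals and their downstream response, and are Edn2, Fgf2, Lif and Cntf (signals), Il6st and Osmr (receptors), Stat3 (the transcription factor), and Socs3, Serpina3n and Bcl3 (targets and feedback). All 10 are listed among the 56748 genes of the deposited table. RNA was sequenced from 12 libraries in 4 groups of 3, with rod RNA obtained by translating ribosome affinity purification (TRAP) and RNA of the whole retina from mice of each genotype. Controls (Het) were RiboTag;Shp2 fl/+;i75-Rod-Cre littermates and knockouts (KO) were RiboTag;Shp2 fl/fl;i75-Rod-Cre mice. The mice were 2 weeks old, homozygous for RiboTag and perfused with cycloheximide, which holds ribosomes on their mRNA. RiboTag adds an HA tag to the ribosomal protein Rpl22 where Cre is active, so the RNA pulled down with an HA antibody comes from ribosomes of the tagged cells. The Cre in both genotypes was driven by the rhodopsin promoter, so the controls had also lost 1 Shp2 allele in their rods, and no group without Cre was sequenced. The sample titles call the controls wt, whereas their genotype is given as heterozygous. Neither the titles nor the text state whether the replicates were separate animals, so the p-values below measure the spread between these samples, which may be technical.

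In an injured retina, photoreceptors and Müller glia, the radial support cells that span the tissue, exchange secreted signals. Stressed photoreceptors are known to make endothelin 2, the product of Edn2, and Müller cells are known to make leukaemia inhibitory factor, the product of Lif, a cytokine of the interleukin 6 family. These cytokines bind receptors that contain gp130, the product of Il6st, whose Janus kinases phosphorylate Stat3, and Stat3 then switches on genes such as the feedback inhibitor Socs3. Shp2, which is encoded by Ptpn11, itself binds phosphorylated gp130.

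The deposited values were whole numbers scaled to nearly the same total within a fraction, between 14525527 and 14527992 in retina and between 16263948 and 16265259 in rods. The estimated number of reads on genes behind these totals was 9990000 to 19230000 for a retina library and 11900000 to 25300000 for a rod library, and could not be estimated for Het retina replicate 3. A count of 3 reads was worth 1.93 to 4.36 on the scale of the deposited values, so values of this size are near the limit of detection, for counting error only. The 10 rod markers held 15 to 17.6% of the total in rod libraries and 4.95 to 6.22% in retina libraries, and all 10 were higher in rods than in retina in both genotypes. The 11 Müller markers held 0.374 to 0.577% in retina and 0.012 to 0.019% in rods. Ptpn11, the targeted gene, was 2511, 2439 and 2431 in Het rod libraries and 1735, 2139 and 1971 in the KO ones, a log2 fold change of -0.26 (SE 0.09, adjusted p = 0.0637 from limma), and its total includes reads from exons outside the floxed part. Transcripts of lens markers made up 0.000826 to 1.61% of Het retina libraries and 0.444 to 5.11% of KO retina libraries.

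The 4 signals ranged from Fgf2, which was high in every library, to Lif and Cntf, which were barely detected. Edn2 (ENSMUSG00000028635) was 26, 124 and 25 in Het retina and 32, 19 and 66 in KO retina. In rods it was 28, 36 and 12 in Het and 40, 27 and 58 in KO libraries. Edn2 was therefore present in every library, with 1 high Het retina library (replicate 2) and overlapping genotypes in both fractions. Fgf2 (ENSMUSG00000037225), which encodes basic fibroblast growth factor, a survival factor for photoreceptors, was 674, 609 and 597 in Het retina and 611, 751 and 498 in KO retina. In rods Fgf2 was 917, 1285 and 872 in Het and 699, 731 and 861 in KO libraries. All 3 KO rod libraries lay below all 3 Het rod libraries, the nearest at 861 and 872, and the retina libraries overlapped. Differences between genotypes were common in rods, where 5005 of 13055 genes tested had an unadjusted p below 0.05 from limma. The order of the Fgf2 values is therefore a description. Exons of Fgf2 share 640 bases with Nudt6 on the opposite strand, which was listed at 8 to 24, and the strand of counting is not given in the sources used here.

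Lif and Cntf were at or near the limit of detection. Lif (ENSMUSG00000034394) was 2, 9 and 2 in Het retina, 7, 7 and 3 in KO retina, 0 in all 3 Het rod libraries, and 1, 0 and 0 in KO rods. Every retina library held Lif and only 1 rod library did. Het retina held 12 estimated reads of Lif, a ratio of 3.13 against a limit of 3 reads over the 3 Het rod libraries. This ratio leaves out the counting error of the 12 reads, so it is not a lower bound. In KO mice the ratio of retina to rods was 10.9 (exact 95% interval 1.68 to 460, counting error only), from 15 reads against 1. Cntf (ENSMUSG00000079415), which encodes ciliary neurotrophic factor, was 3, 5 and 1 in Het retina, 1, 5 and 4 in KO retina, 4, 4 and 0 in Het rod libraries, and 0, 3 and 1 in those of KO rods. The 4 groups overlapped for Cntf. Of the exon bases of Cntf, 78.9% are shared with Zfp91 on the same strand, a gene listed at 1304 to 2503, so reads of the pair cannot be told apart there and the Cntf values are uncertain.

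**Figure D1:**
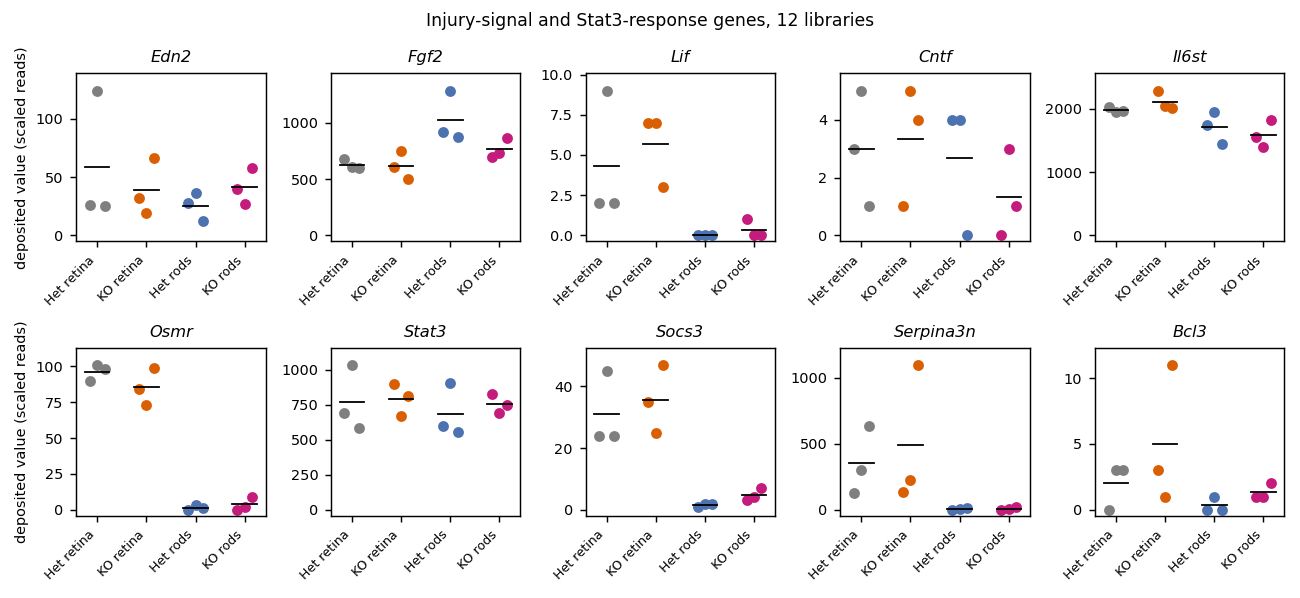
Deposited values (reads multiplied by 1 factor per library, linear axes) of the 10 genes in each of the 12 libraries, by group, with points for libraries and lines for group means (n = 3). Il6st, Stat3 and Fgf2 were high in both fractions, Osmr, Socs3 and Serpina3n lay near 0 in rods, and Lif, Cntf and Bcl3 did not exceed 11 in any library.

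Of the receptor subunits, 1 was present in both fractions and the other almost only in whole retina. Il6st (ENSMUSG00000021756), the shared signalling subunit gp130, was 2023, 1942 and 1966 in Het retina and 2285, 2039 and 2010 in KO retina. In rods Il6st was 1742, 1955 and 1443 in Het and 1551, 1393 and 1816 in KO libraries. Of the 10 genes it had the smallest ratio of highest to lowest value, with all values between 1393 and 2285. Osmr (ENSMUSG00000022146), the subunit that pairs with gp130 to bind oncostatin M, was 90, 101 and 98 in Het retina and 84, 73 and 99 in KO retina. In rods Osmr was 0, 3 and 1 in Het and 0, 2 and 9 in KO libraries. Every retina library thus lay far above every rod library.

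Stat3 (ENSMUSG00000004040), the transcription factor that gp130 activates, was 688, 1035 and 585 in Het retina and 901, 668 and 811 in KO retina. In rods Stat3 was 598, 909 and 555 in Het and 826, 689 and 750 in KO libraries. Replicate 2 was the highest Het library in both fractions, and the genotypes overlapped in both. The values count Stat3 mRNA and carry no information on phosphorylation of the protein.

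The 3 target genes had their highest values in whole retina. Socs3 (ENSMUSG00000053113), which binds gp130 and blocks its kinases, was 24, 45 and 24 in Het retina and 35, 25 and 47 in KO retina. In rods Socs3 was 1, 2 and 2 in Het and 3, 4 and 7 in KO libraries. Each KO rod library was above each Het rod library, at 13 estimated reads against 6, which is a description of values near the limit of detection. The ratio of KO to Het was 2.52 (exact 95% interval 0.893 to 8.08, counting error only), an interval that includes 1. Serpina3n (ENSMUSG00000021091), a secreted protease inhibitor of reactive glia, was 127, 300 and 632 in Het retina and 138, 227 and 1099 in KO retina. In rods Serpina3n was 1, 5 and 11 in Het and 1, 2 and 22 in KO libraries. In each of the 4 groups 1 library, replicate 3, stood above the others, and the genotypes overlapped in both fractions. Serpina3n has close paralogues in the same gene cluster, and how shared reads were assigned is not given in the sources used here. Bcl3 (ENSMUSG00000053175), a nuclear regulator of NF-κB, was 0, 3 and 3 in Het retina, 3, 1 and 11 in KO retina, 0, 1 and 0 in Het rod libraries, and 1, 1 and 2 in those of KO rods. Only KO retina replicate 3 exceeded 3, and no comparison of Bcl3 could be tested.

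The 300-base windows around the RefSeq start of all 10 genes were searched for the motif TTCNNNGAA, the palindromic element bound by Stat factors, which reads alike on both strands. It was found in the window of 1 of the 10 genes, Socs3, and in 2722 of 32817 RefSeq windows (8.3%). The match TTCTTAGAA starts 154 bases before the RefSeq start of Socs3. The stretch below, from RefSeq on GRCm38.p6, lies at chr11:117969452-117969616 on the minus strand, in an intron of the longest GENCODE transcript of Socs3 and directly upstream of the first exon of another. It is shown in lower case with the motif in capitals. The stretch of Edn2 is given for comparison, because Edn2 had the largest genotype difference of the tested members in rods and holds no match. It lies at chr4:120160956-120161205 on the plus strand, directly upstream of the first base of the gene.
Socs3: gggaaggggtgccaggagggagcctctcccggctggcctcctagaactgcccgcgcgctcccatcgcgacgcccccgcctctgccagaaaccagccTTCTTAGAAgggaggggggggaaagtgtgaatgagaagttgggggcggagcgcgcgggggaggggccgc
Edn2: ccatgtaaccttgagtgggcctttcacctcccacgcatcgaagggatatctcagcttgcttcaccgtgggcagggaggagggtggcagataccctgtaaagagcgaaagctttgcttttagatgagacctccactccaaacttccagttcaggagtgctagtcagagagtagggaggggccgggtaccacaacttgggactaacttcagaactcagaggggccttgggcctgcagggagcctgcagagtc
A match is a description of the letters and no measure of binding, and its absence says only that these letters are not in the window.

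Levels of different genes were compared only per kilobase of the longest transcript, on values scaled over all 12 libraries by TMM (trimmed mean of M values, a scaling that sets most genes equal between libraries). In Het retina the level of Il6st was 198 ± 3.61 per kb (SD, n = 3), that of Serpina3n 150 ± 111, that of Stat3 111 ± 33.4, and that of Fgf2 91.2 ± 4.82. The range of Serpina3n, 52.8 to 271, covered those of the other 3, so its place was not resolved. Il6st, at 194 or more in each library, lay above Stat3 (85.7 to 149) and Fgf2 (88.4 to 96.8), whose ranges overlapped. Edn2 (34.7 ± 33.7), Osmr (15.3 ± 1.05) and Socs3 (10.6 ± 4.1) followed, and Cntf, Bcl3 and Lif had levels below 3 per kb. In Het rods the levels per kb were 229.9 ± 33.8 for Il6st, 199.7 ± 43.3 for Fgf2 and 132 ± 36.6 for Stat3. The ranges of Il6st and Fgf2 overlapped there, and so did those of Fgf2 (170.4 to 249) and Stat3 (107 to 174). Edn2 reached 20.2 ± 9.67 per kb in Het rods and 33.2 ± 12.6 in KO rods, and no other of the 10 exceeded 4.7 per kb on average in rods.

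To determine whether loss of Shp2 changed these genes in rods, KO and Het rod libraries were compared by limma on log2 values. Calls required an adjusted p (Benjamini-Hochberg over all genes tested) below 0.05 together with an absolute log2 fold change above 0.5. Of the 10 genes, 4 (Edn2, Fgf2, Il6st and Stat3) had a value of about 10 in at least 3 rod libraries and were tested, and 0 of the 4 changed. Among all 13055 genes tested, 13.1% were called, 1460 higher and 250 lower in KO rods (1202 and 584 with library totals alone as scaling, and 276 and 101 with the GC trend removed). An unadjusted p below 0.05 was reached by 1 of the 4, Fgf2, and by 5005 of all genes tested. In data simulated for this comparison, 81.5% of 200 genes changed by a log2 fold change of 1 were recovered, with 6.32% of calls false. The simulation gave every gene the same relative spread and had no GC or lens trend. It therefore checks the method and does not give the power in the real libraries.

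Edn2 had the largest difference of the 4, with a scaled mean of 42.6 ± 14.5 (SD, n = 3) in KO rods and 24.6 ± 11.7 in Het rods. Its log2 fold change was 0.81 (95% interval -0.02 to 1.64, adjusted p = 0.14 from limma), and 0.38 without Het rods replicate 3. Fgf2 was 785 ± 70.8 in KO rods and 995 ± 212 in Het rods, a log2 fold change of -0.32 (95% interval -0.63 to -0.02, adjusted p = 0.107 from limma). Without Het rods replicate 2, the highest library, the log2 fold change of Fgf2 was -0.16. Il6st differed by -0.03 on the log2 scale (95% interval -0.27 to 0.22, adjusted p = 0.888 from limma), so a change beyond 0.5 lay outside its interval. Stat3 differed by 0.25 (95% interval -0.12 to 0.62, adjusted p = 0.302 from limma). Without Het rods replicate 2 the value of Stat3 was 0.46 (adjusted p = 0.015 from limma), which is below 0.5 and so not called, and without Het rods replicate 3 it was 0.10. For Edn2, Fgf2 and Stat3 the intervals included changes beyond 0.5, and a p above the threshold does not show that the genotypes are alike.

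**Figure D2:**
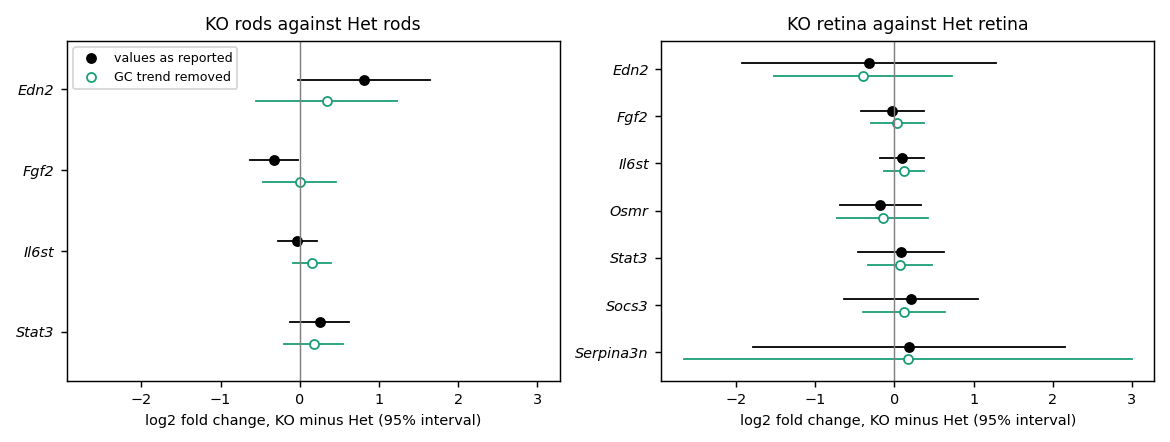
Log2 fold change of KO against Het libraries for the genes tested in rods (left, 4 genes) and in whole retina (right, 7 genes), with 95% intervals from limma, as reported (filled circles) and after the GC trend of the libraries was removed (open circles). In rods Edn2 moved from 0.81 to 0.34 and Fgf2 from -0.32 to 0.00, and all intervals except that of Fgf2 as reported included 0.

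The difference between genotypes in rods followed the GC content of transcripts. The median log2 fold change of all genes was -0.24 in GC decile 2, which holds Fgf2 (42.19% GC), and 0.45 in decile 9, which holds Edn2 (56.98% GC). Il6st (47.44% GC) was in decile 4 with a median of -0.13, and Stat3 (52.52% GC) in decile 7 with a median of 0.13. Socs3, which was not tested in rods, has 58.74% GC and falls in decile 10, with a median of 0.69. Fgf2, Il6st and Stat3 lay within the middle 50% of their deciles, whereas Edn2, at 0.81, lay above the upper quartile of its decile, 0.67. After the trend was removed from each library, the log2 fold change was 0.34 for Edn2 (95% interval -0.55 to 1.23, adjusted p = 0.652 from limma) and 0.00 for Fgf2 (95% interval -0.46 to 0.46, adjusted p = 0.998 from limma). Il6st was then at 0.15 and Stat3 at 0.18, with adjusted p = 0.41 and 0.562 from limma. The GC trend, the log2 change of a library from GC-poor to GC-rich genes relative to its fraction, was -0.81, -0.23 and -0.42 in the Het rod libraries and 0.42, 0.76 and 0.28 in the KO ones. The genotypes did not overlap in this measure, so the GC trend of the libraries and the genotype cannot be told apart in rods.

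**Figure D3:**
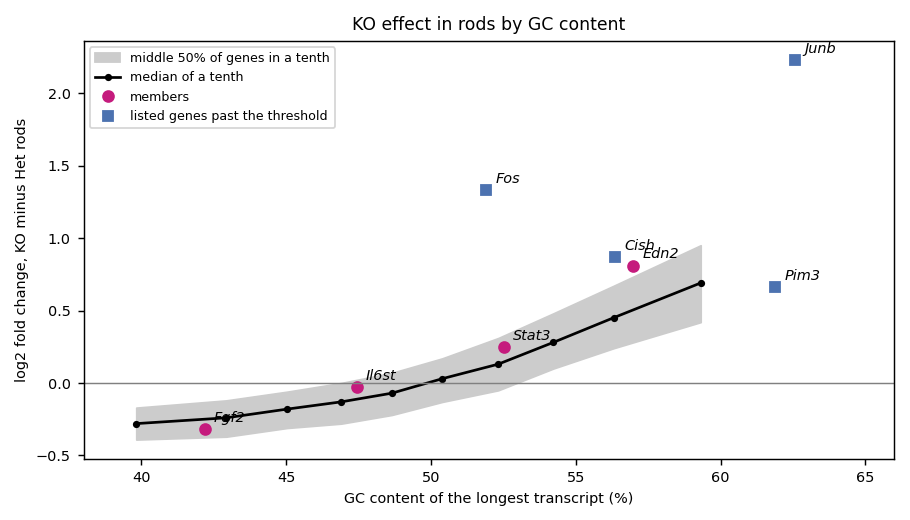
Log2 fold change of KO against Het rods by GC content of the longest transcript (percent), with the median (line) and the middle 50% (shading) of all genes in each GC decile. Of the 4 tested members (circles), Fgf2, Il6st and Stat3 lie within the shading and Edn2, at 0.81, lies above it, as do Junb and Fos (squares, with Cish and Pim3) at 2.23 and 1.33.

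In whole retina, where RNA of glia is included, 7 of the 10 genes were tested and 0 changed, as did 0% of the 16863 genes tested. An unadjusted p below 0.05 was found for 140 of all genes and for 0 of the 7. Stat3 was 795 ± 116 (SD, n = 3) in KO and 768 ± 236 in Het retina after scaling, a log2 fold change of 0.08 (95% interval -0.46 to 0.62, adjusted p = 1 from limma). Il6st differed by 0.10 (95% interval -0.18 to 0.37), Osmr by -0.18 (-0.69 to 0.34) and Fgf2 by -0.03 (-0.42 to 0.37). Socs3 differed by 0.21, with a 95% interval of -0.64 to 1.06. The widest intervals were those of Edn2, at -0.32 (-1.92 to 1.28), and Serpina3n, at 0.18 (-1.79 to 2.15), which a single library could turn: Edn2 was at 0.42 without Het retina replicate 2, and Serpina3n at -0.72 without KO retina replicate 3. In simulated data for this comparison, 82% of 200 genes changed by a log2 fold change of 1 were recovered. These data too had the same relative spread for every gene and no GC or lens trend. That share is therefore not the power in the real retina libraries.

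The KO effect in rods was also set against that in retina, as an interaction over all 12 libraries. None of the 7 genes tested passed (0 of 7), as for 0% of the 17192 genes tested, of which 601 had an unadjusted p below 0.05. Edn2 differed most, with an effect in rods 1.04 above that in retina on the log2 scale (95% interval -0.84 to 2.92, adjusted p = 0.803 from limma). Fgf2 differed by -0.40 (95% interval -0.91 to 0.11), and Stat3 by 0.06 (95% interval -0.61 to 0.74).

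The comparison of rods with whole retina sorted the tested genes into 3 kinds: higher in rods, not called in either genotype, and depleted from rods. A gene that was not called is not thereby shown to be alike in both fractions. Of the 7 genes tested in Het mice, 1 was higher and 3 were lower in rods, where 58.3% of the 16110 genes tested were called, 21.6% higher and 36.8% lower. In KO mice the counts were again 1 and 3 of 7, beside 62.3% of 16121 genes called, 25.8% higher and 36.4% lower. With library totals alone, 1168 genes were called higher and 7399 lower in Het mice, and 1144 higher and 7846 lower in KO mice. Osmr, Socs3 and Serpina3n passed the filter only through the retina libraries, so that they were bound to differ, and their counts are a description. When any 1 retina library of the fit was left out, Osmr and Socs3 no longer passed the filter, which left 2 called members in Het mice and 1 or 2 in KO mice. In RNA from mixed tissue, fewer cells of a type and less RNA per cell cannot be told apart.

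Fgf2 was the gene higher in rods. On the scale set over all 12 libraries it was 578.2, 528.1 and 528.6 in Het retina and 1070.8, 1489.8 and 1017.5 in Het rods, without overlap. Its log2 fold change was 0.94 in Het mice (SE 0.16, adjusted p = 0.00105 from limma). In KO mice it was 523.7, 659.6 and 457.4 in retina and 823.8, 835.4 and 1002.9 in rods, a log2 fold change of 0.69 (SE 0.16, adjusted p = 0.00463 from limma). The size of this difference depended on the scaling: with library totals alone it was 0.53 in Het and 0.15 in KO mice (adjusted p = 0.0236 and 0.473 from limma), a scaling that moved the median of all genes to -0.51 and -0.55. In KO mice the call was also lost without KO retina replicate 1 (0.51, adjusted p = 0.076 from limma) and without KO retina replicate 3 (0.38). A block for the replicate number left the value in Het mice the same, with an adjusted p of 7.41e-04 from limma.

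Il6st, Stat3 and Edn2 did not pass the threshold between the fractions in either genotype under TMM scaling. Il6st differed by 0.03 (95% interval -0.27 to 0.33, adjusted p = 0.838 from limma) in Het mice and by -0.04 (-0.34 to 0.25) in KO mice. Stat3 differed by 0.10 (95% interval -0.49 to 0.68) in Het mice and by 0.31 (-0.03 to 0.64, adjusted p = 0.0912 from limma) in KO mice. With library totals alone, the values in Het mice became -0.38 for Il6st and -0.32 for Stat3, so their direction relative to retina depends on the scaling. In KO mice Stat3 was then at -0.23, and Il6st was called lower in rods (-0.58, adjusted p = 0.00441 from limma). Edn2 differed by -0.63 (95% interval -2.09 to 0.83) in Het mice and by 0.55 (-0.51 to 1.61) in KO mice, and without Het retina replicate 2 the first of these was 0.00.

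Osmr, Socs3 and Serpina3n were depleted from rods in both genotypes. By estimated reads, Osmr was 38.5-fold higher in Het retina than in Het rods (exact 95% interval 17.5 to 106) and 18.6-fold higher in KO retina than in KO rods (9.97 to 39.3). Socs3 was 12.1-fold higher in Het retina (5.37 to 33.9) and 6.11-fold higher in KO retina (3.43 to 11.8). Serpina3n was 45.7-fold higher in Het retina (28.8 to 77.4) and 55.6-fold higher in KO retina (37 to 88). These intervals cover counting error only. Log2 fold changes used a pseudocount of 2, which understates the change of low genes such as these.

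**Figure D4:**
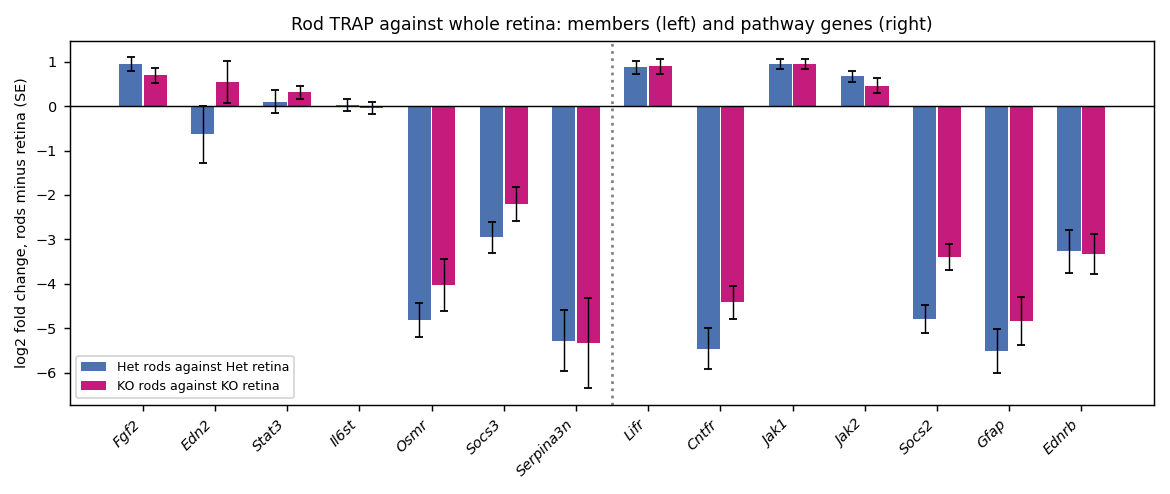
Log2 fold change of rod TRAP against whole-retina libraries in Het (blue) and KO (magenta) mice for the 7 tested members and, to the right of the dotted line, 7 genes of the listed pathways, with SE from limma (n = 3 libraries per group). Fgf2, Lifr and Jak1 lie above 0, whereas Osmr, Socs3, Serpina3n, Cntfr, Socs2, Gfap and Ednrb lie between -2.20 and -5.52.

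Other genes of the gp130 pathway were higher in rods, lower in rods or not called. Of 28 listed genes 18 were tested in Het mice, with 6 higher and 6 lower in rods, and 19 in KO mice, with 7 higher and 7 lower. Among all genes tested, 21.6% were higher and 36.8% lower in Het mice, and 25.8% and 36.4% in KO mice. With library totals alone, the counts were 2 higher and 7 lower in Het and 1 higher and 8 lower in KO mice. Lifr, the receptor subunit that pairs with gp130 for Lif and Cntf, was 1894, 1325 and 1474 in Het retina and 2524, 2363 and 2226 in Het rods, a log2 fold change of 0.87 (SE 0.14, adjusted p = 5.49e-04 from limma). Jak1, a kinase bound to gp130, was higher in rods by 0.94 (SE 0.11, adjusted p = 7.21e-05 from limma). With library totals alone, Lifr was at 0.45 in Het mice and no longer called, whereas Jak1, at 0.52, was. In KO mice both calls were lost under that scaling, with Lifr at 0.37 (adjusted p = 0.103 from limma) and Jak1 at 0.41. Cntfr, the subunit specific to Cntf, was 276, 514 and 149 in Het retina and 4, 5 and 2 in Het rods, and since it passed the filter only through the retina libraries, these values are a description. Il6 was at 0 in every library, and Osm, the ligand of Osmr, was above 0 in 2 retina libraries and 0 rod libraries.

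Listed ligands, receptors and a converting enzyme of the endothelin and FGF pathways were likewise lower in rods. All 8 tested genes of the endothelin and FGF list were lower in Het rods, where 36.8% of all genes tested were called lower. Except for Ece1 and Fgf1, the 8 passed the filter only through the retina libraries, so the count is a description. Ednrb, an endothelin receptor, was 109, 54 and 194 in Het retina and 10, 10 and 4 in Het rods. Fgfr1, a receptor of Fgf2, was 336, 608 and 447 in Het retina and 8, 17 and 27 in Het rods. Of 12 tested genes of the reactive glia list, which includes Osmr, Serpina3n and Stat3, 10 were lower in Het rods and 0 higher, again beside 36.8% lower among all genes. Of these 10, all but Vim, Cp and S100a6 passed the filter only through the retina libraries, so this count is a description too. Gfap, the intermediate filament that reactive glia induce, was 165, 324 and 151 in Het retina and 119, 155 and 190 in KO retina, a log2 fold change of -0.39 between genotypes (SE 0.34, adjusted p = 1 from limma).

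The same 4 lists were then compared between genotypes, where 13.1% of all genes tested in rods were called. In rods 14 of the 28 gp130 pathway genes were tested and 1 was called, higher in KO, with a list median of -0.11 against -0.01 for all genes tested. This was Cish, a feedback inhibitor of the Socs family, at 70, 76 and 78 in Het and at 114, 142 and 138 in KO rod libraries (log2 fold change 0.87, SE 0.17, adjusted p = 0.00542 from limma). After removal of the GC trend Cish was at 0.45 (adjusted p = 0.0855 from limma). Of the 20 listed STAT3 targets 8 were tested in rods, with a list median of 0.37. Of these 3 were called, all higher in KO, among them Junb, which passed the filter only through the KO libraries. Of the 1710 genes called among all tested, 1460 were likewise higher in KO, and 377 were called in all once the GC trend was removed. Fos, an immediate early transcription factor, was 112, 204 and 117 in Het against 395, 322 and 287 in KO rods. Its log2 fold change was 1.33 (SE 0.23, adjusted p = 0.00528 from limma), and 1.30 after GC removal (adjusted p = 0.0152 from limma). Junb, a partner of Fos, was 8, 6 and 2 in Het against 25, 48 and 19 in KO rods. Since it passed the filter only through the KO libraries, it was bound to differ, and its values are a description. The log2 fold change of Junb was 2.23 (SE 0.45), and 1.50 after GC removal. Pim3, a serine kinase, was at 0.66 (adjusted p = 0.0168 from limma) and at -0.05 after GC removal, and its call was lost without Het rods replicate 1, KO rods replicate 1 or KO rods replicate 2. Junb was not tested when any KO rod library was left out, since fewer than 3 libraries then reached the minimum value. None of the 4 was called when all 12 libraries shared 1 fit (adjusted p = 0.178 to 0.2 from limma). Of the endothelin and FGF list 0 of 3 and of the reactive glia list 0 of 5 tested genes were called in rods. In retina 0 genes of the 4 lists were called, out of 20, 16, 9 and 13 tested.

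Differences among the 6 retina libraries were larger than those between genotypes for several of the genes. Serpina3n followed the share of lens marker transcripts, which was 0.000826, 1.59 and 1.61% in Het retina and 0.444, 1.07 and 5.11% in KO retina. The order of the 6 libraries was the same for both, with Spearman's rho = 1 (exact permutation p = 0.00278) and Pearson's r = 0.69 on log2 values (exact permutation p = 0.0972). The adjusted p over the 42 relations computed was 0.117 for rho and 0.292 for r, and r was 0.85 without the 2 libraries farthest from the median lens share. With the log2 lens share as a covariate, an alternative chosen after seeing the data, the KO effect of Serpina3n in retina was -0.57 in place of 0.18. Socs3 followed the GC trend of the libraries, with Pearson's r = 0.94 (exact permutation p = 0.0125) and rho = 0.83 (exact permutation p = 0.0583). The adjusted p was 0.194 for r and 0.392 for rho, and r was 0.67 without the 2 farthest libraries and 0.19 after removal of the GC trend from Socs3. The share of Müller markers was 0.377, 0.521 and 0.465% in Het retina and 0.429, 0.374 and 0.577% in KO retina, and Osmr followed it with Pearson's r = 0.84 (exact permutation p = 0.0458) and rho = 0.94 (exact permutation p = 0.0167). The adjusted p was 0.214 for r and 0.35 for rho, and r was 0.74 without the 2 farthest libraries and 0.91 after GC removal (exact permutation p = 0.0181). With the same share, r was 0.86 for Socs3, 0.82 for Edn2, 0.79 for Serpina3n and -0.86 for Fgf2 (exact permutation p = 0.0389, 0.0458, 0.0708 and 0.0264, adjusted p = 0.214, 0.214, 0.27 and 0.194). The rho values of these genes were 0.71, 0.89, 0.77 and -0.77 (exact permutation p = 0.136, 0.0333, 0.103 and 0.103). Without the 2 farthest libraries r was 0.73, 0.78, 0.66 and -0.66, and after GC removal it was 0.60, 0.80, 0.77 and 0.25, so the direction for Fgf2 turned. GC removal changed the gene values only, and the Müller share was left as it was. Removal also did not free every gene of the GC trend. With that trend, r went from 0.53 to 0.85 for Osmr, from -0.66 to 0.73 for Fgf2 and from 0.05 to 0.88 for Il6st. For Socs3 it went from 0.94 to 0.19, for Edn2 from 0.91 to 0.82, for Stat3 from 0.88 to 0.81 and for Serpina3n from 0.29 to 0.27. Of the 42 relations, 0 passed after adjustment and 9 had an unadjusted p below 0.05 for r by exact permutation. The labels name no batch, and the part of lens RNA, Müller RNA or the GC trend in these values was not tested further.

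**Figure D5:**
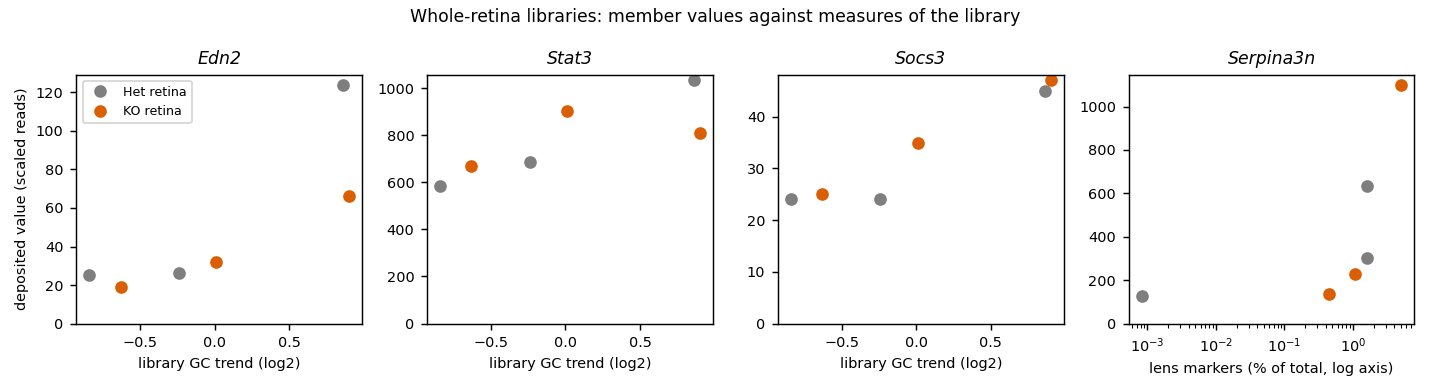
Deposited values of Edn2, Stat3 and Socs3 against the GC trend of each whole-retina library (log2) and of Serpina3n against the share of lens markers (percent of total, log axis), for 3 Het (grey) and 3 KO (orange) libraries. Socs3 was highest in the 2 libraries with the most positive trend, at 45 and 47, and Serpina3n was highest, at 1099, in the library with 5.11% lens transcripts.

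As a description of shared pattern, each tested gene was set beside all others by the correlation of log2 values over the 12 libraries after the mean of each fraction was subtracted. The genes most like Stat3 were St6galnac6 (r = 0.95), Hs6st1 (r = 0.94) and Slc32a1 (r = 0.93). Among those most like Socs3 were Snrnp35 (r = 0.96) and Acsf3 (r = 0.94), and the genes most like Edn2 were Proser2 (r = 0.95), Gramd4 and Hdac11 (both r = 0.93). Serpina3n was most like Car12 (r = 0.98), Ermn (r = 0.97) and Scel (r = 0.95), and Osmr most like Timp2 (r = 0.91), Kank2 and Sh3bgr (both r = 0.90). Fgf2 was most like Inpp4b, BC025920 and Gm38077 (each r = 0.91), and Il6st most like H1f4 and Necab3 (both r = 0.92) and Slc25a5-ps (r = 0.88). These libraries share their GC and lens trends, and the values are the highest of all genes, so no test is attached to them.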

How the data were processed

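Groups come from the genotype and tissue labels, and replicate numbers from the titles. cDNA was made from polyadenylated RNA with the SMART-Seq V4 kit, and the submitters' notes name CASAVA 1.8.2, HISAT2, edgeR, DESeq2 and GRCm39 without roles. The authors deposited 1 table whose values are a signal proportional to reads: as inferred from the values, counts multiplied by 1 factor per library and rounded. In 6 simulated libraries the largest error of an estimated factor was 0.002. Het retina replicate 3 had no estimated factor and was taken at its deposited values in ratios of reads. Here, values were scaled by TMM, a pseudocount of 2 was added before taking log2, and groups were compared with limma 3.58.1 (trend and robust options) in R 4.3.3. Genes needed a value of about 10 in at least 3 libraries and a sum of at least 15. An exact permutation of 3 against 3 libraries cannot go below p = 0.1. GC content (known for 98.3% or more of the tested genes), lengths and overlaps come from GENCODE on GRCm38, matched by gene identifier, and promoters from RefSeq. The GC trend was a spline with 5 degrees of freedom per library. Python 3.11.15, NumPy 2.4.6 and matplotlib 3.10.9 served for the rest, and methods were tested on simulated data. Same-numbered Het rod and Het retina libraries deviated together, with correlations of 0.47, 0.41 and 0.25. The mean of -0.19 for other numbers is no separate contrast, because deviations from a group mean cancel out within the group. Neither the labels nor the text state that the numbers pair these samples. The members and lists were chosen with earlier results of these data known. Named genes are the 10 members, listed genes past the threshold between genotypes and listed genes of high mean value, whereas Cntfr, Osm, Il6, Ednrb, Gfap and Lcn2 were chosen after their values were seen. Socs2 and Jak2, plotted for rods against whole retina, are likewise neither past that threshold nor among the highest mean values of their list. A gene that the rule on shared pattern would name is not reported here.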

Additional observations from a re-analysis of the deposited data

How the results depend on the processing

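No alternative gave a called member between genotypes in rods or retina or in the interaction, and in 503 of the 555 values of single members under an alternative the direction and the side of the threshold held. The cause of the changes below was not tested, except that leaving out a retina library or a stricter filter leaves fewer genes to test. In KO against Het rods, the 1710 genes called became 857 without the trend and robust options, 377 with the GC trend removed, 445 with GC removal and the replicate block, and 0 with all 12 libraries in 1 fit, where the spread of the retina libraries entered. Removal of the GC trend, with or without the block, moved Fgf2 to 0.00 and Il6st to 0.15 in rods and Fgf2 to 0.03 in retina. In KO against Het retina, 1 gene was called without the trend and robust options, and the lens covariate, chosen after seeing the data, gave 0.02 for Fgf2 and -0.57 for Serpina3n.

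Between fractions, library totals alone gave -0.38 for Il6st and -0.32 for Stat3 in Het mice and -0.23 for Stat3 in KO mice. Il6st in KO mice was then called lower in rods (-0.58, adjusted p = 0.00441 from limma) and the Fgf2 call was lost. A value of about 10 in every library gave 5152 genes and 1 member in Het mice, with Il6st at -0.13 and Stat3 at -0.07, and 5629 genes and 0 members in KO mice. GC removal, with or without the block, put Il6st at -0.07 in Het and 0.00 in KO mice.

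With single libraries left out, calls ranged from 888 to 1942 genes in KO rods (888 without Het rods replicate 1 and 1102 without KO rods replicate 2), 0 to 1 in KO retina, 5456 to 8746 genes and 2 to 4 members between Het fractions, 5875 to 9421 genes and 1 to 4 members between KO fractions, and 0 to 1 in the interaction. Log2 fold changes ranged from -0.15 to 0.07 for Il6st in KO rods. In KO retina they ranged from -0.79 to 0.42 for Edn2, -0.14 to 0.09 for Fgf2, -0.08 to 0.32 for Stat3, -0.02 to 0.50 for Socs3 and -0.72 to 0.81 for Serpina3n. Between Het fractions they were -1.06 to 0.00 for Edn2, -0.09 to 0.15 for Il6st and -0.12 to 0.23 for Stat3, and between KO fractions -0.02 to 0.85 for Edn2 and -0.25 to 0.06 for Il6st. In the interaction they were 0.00 to 1.33 for Osmr, -0.07 to 0.30 for Stat3 and -1.15 to 0.75 for Serpina3n.

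The replicate block left the call of every tested member as it was and gave 1885 genes in KO rods, 0 in KO retina, 9845 and 9894 between fractions and 0 in the interaction. In rods between genotypes the same-numbered libraries correlated at 0.18, 0.03 and 0.03. In retina they correlated at 0.40, -0.59 and -0.14, so between genotypes they share only a number. Between KO fractions the correlations were 0.33, -0.01 and 0.18. The lens share of the KO libraries still rose with the number in both fractions. It was 0.444, 1.07 and 5.11% in retina and 0.0114, 0.0231 and 0.0817% in rods. Whether the numbers pair the KO samples was therefore not settled either. Under the block the adjusted p of Ptpn11 in rods was 0.0443 from limma.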

Other observations

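Of the microglia markers, 10 genes in all, the summed share of the total was 0.00177 to 0.00198% in Het rods and 0.00132 to 0.00135% in KO rods, without overlap, and 0.00582 to 0.00848% in retina. Of the pathway lists, Lcn2, which encodes a secreted iron carrier protein and is on both the STAT3 target and the reactive glia list, was at a like level in rods and retina, at 54 to 81 in Het rods and 66 to 78 in Het retina. Its log2 fold change between KO and Het rods was 0.30 (SE 0.20, adjusted p = 0.306 from limma). Fos was also above the Het values in part of the KO retina libraries, at 243, 170 and 197 against 104, 184 and 93, with a log2 fold change of 0.73 (SE 0.30, adjusted p = 1 from limma, unadjusted p = 0.0411 from limma).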
